A study of Rattus norvegicus with 45 samples.

Results

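Brown adipose tissue was profiled by mRNA sequencing in 3 rats given empagliflozin and 3 given saline vehicle. All were male SHR, the spontaneously hypertensive rat, which is inbred for high blood pressure. Empagliflozin blocks SGLT2, the cotransporter that reclaims filtered glucose in the kidney, and was given by gavage at 10 mg/kg per day for 30 days. They were 8 weeks old, weighed 220 to 260 g and were kept on standard chow, and no normotensive strain is among the groups used. The 6 brown fat libraries were taken by their titles from 45 libraries of 8 tissues in 15 groups of 3. The tissue was sampled whole, so fewer cells of a type and less RNA per cell cannot be told apart. The labels describe 3 rats per arm, and p-values set the difference between arms against the spread between these few libraries. The vehicle and empagliflozin values came from separate deposited tables with the same 20794 gene identifiers, so table and arm cannot be told apart.

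Brown adipocytes burn fatty acids for heat through UCP1, a carrier that lets protons leak across the inner mitochondrial membrane. They also take up glucose and convert part of it to new fatty acids. Citrate leaves the mitochondrion and is cleaved to acetyl-CoA by ATP-citrate lyase (Acly), which fatty acid synthase (Fasn) and the desaturases then use. The transcription factors SREBP-1 (Srebf1) and ChREBP (Mlxipl) drive these genes, and SREBP-2 drives those of cholesterol synthesis. SGLT2 inhibitors lower blood glucose by letting glucose pass into urine.

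Scd2, Fads1 and Acly are lipid synthesis genes that were set as markers of this comparison, and their promoters are shown for that reason. The windows run from 250 bases before to 50 bases after the RefSeq start of the gene in the rat assembly GRCr8, on the strand of the gene. Capitals mark the CCAAT box, searched as the letters CCAAT on both strands. Scd2 lies at chr1:253118127-253118426 (plus strand), Fads1 at chr1:216252442-216252741 (plus strand) and Acly at chr10:85963582-85963881 (minus strand).
Scd2: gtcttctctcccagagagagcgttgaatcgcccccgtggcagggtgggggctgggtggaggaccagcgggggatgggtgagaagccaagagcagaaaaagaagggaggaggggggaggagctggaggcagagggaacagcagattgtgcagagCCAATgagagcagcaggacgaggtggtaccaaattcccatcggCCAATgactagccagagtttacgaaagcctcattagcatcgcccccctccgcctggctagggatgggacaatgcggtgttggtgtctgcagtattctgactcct
Fads1: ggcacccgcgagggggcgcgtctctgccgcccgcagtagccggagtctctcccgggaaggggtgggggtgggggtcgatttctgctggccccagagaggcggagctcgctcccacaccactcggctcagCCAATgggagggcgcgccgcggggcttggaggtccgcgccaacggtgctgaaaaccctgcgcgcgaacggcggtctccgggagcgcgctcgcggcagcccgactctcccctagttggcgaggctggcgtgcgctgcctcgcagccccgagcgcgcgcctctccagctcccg
Acly: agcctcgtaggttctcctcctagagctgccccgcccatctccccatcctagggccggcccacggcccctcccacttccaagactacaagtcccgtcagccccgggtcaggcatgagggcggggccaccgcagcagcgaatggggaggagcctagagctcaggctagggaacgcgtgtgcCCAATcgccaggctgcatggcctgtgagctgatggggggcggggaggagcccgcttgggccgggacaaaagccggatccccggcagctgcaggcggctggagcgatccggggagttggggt
The CCAAT boxes began 97 and 54 bases before the start of Scd2, 121 bases before that of Fads1 and 71 bases before that of Acly. Of all 33469 promoter windows, 37.5% held CCAAT on either strand. It was in 11 of the 16 fatty acid synthesis genes with a window, in 14 of 17 cholesterol genes and in 7 of 15 genes of polyunsaturated fatty acid synthesis. The sterol regulatory element searched as TCACNCCAC was in 1.12% of all windows and in 0 of these 16, 17 and 15 genes. A listed gene was counted if any of its windows held the letters, whereas the shares over all are of single windows. The units thus differ. An E-box searched as CACGTG, present in 6.42% of all windows, was in 0 of 16, 2 of 17 and 3 of 15. These matches describe letters, and binding was not measured.

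The tissue identity was checked first. Ucp1 stood at 4573 to 10083 FPKM in the 6 brown fat libraries, against 3.92 to 6.41 FPKM in vehicle white fat. FPKM are fragments counted per kilobase of transcript and scaled to the fragments mapped in each library. Cidea, a lipid droplet protein abundant in brown adipocytes, ranged from 2956 to 5174 FPKM. The developmental markers Zic1 and Lhx8 were present at 3.26 to 7.87 and 4.36 to 7.48 FPKM, and in vehicle white fat they did not exceed 0.04 FPKM. Of the 12 brown adipocyte markers, Elovl3, an elongase of brown fat, was listed at 0 in all 6 libraries. Cox7a1, another of these markers, was at 0.26 to 3.67 FPKM. Markers of mesothelium and of cardiomyocytes summed to at most 0.61 and 1.3 FPKM. Those of skeletal muscle summed to 113 to 163 FPKM and those of Schwann cells and nerve to 366 to 486 FPKM. Kidney and liver markers summed to 23.6 to 42.2 FPKM. These sums rested on few genes. In vehicle, Mybpc2 averaged 87.0 FPKM of a muscle sum of 131, and Alb 35.5 of a kidney and liver sum of 35.9. S100b averaged 240 FPKM and Pmp22 114 FPKM of a Schwann cell and nerve sum of 424. In vehicle white fat S100b was at 769.9 to 1765 FPKM. Which cells held these transcripts was not tested.

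A pair of vehicle libraries stood apart from the rest. The summed FPKM of brown adipocyte markers was 19543 in vehicle library 2 and 9233 to 13203 FPKM in the other libraries. Vehicle library 2 also had the lowest macrophage sum, 151.8 FPKM against 210.3 to 361 FPKM. Vehicle library 3 had the highest smooth muscle and pericyte sum, 817 FPKM against 192.7 to 311 FPKM. Its erythroid sum was 12619.6 FPKM against 2432 to 5739 FPKM. List medians that move with these or other libraries are given with and without them, and the cause of such moves was not tested.

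**Figure D1:**
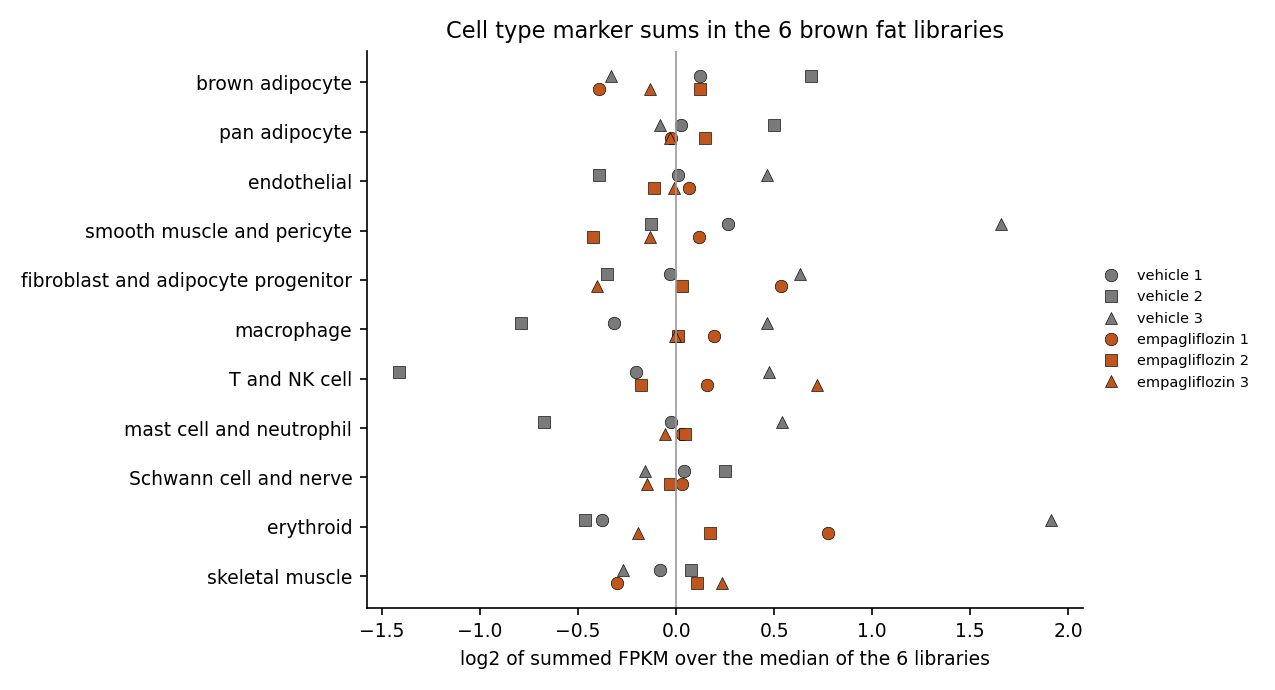
Summed FPKM of cell type marker lists in each brown fat library, as log2 over the median of the 6 libraries (x axis), with vehicle in grey, empagliflozin in orange and the marker shape giving the library number. Vehicle library 2 lies highest for brown adipocyte markers at 19543 FPKM, and vehicle library 3 lies highest for smooth muscle markers at 817 FPKM and for erythroid markers at 12619.6 FPKM.

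Across brown fat, 1 gene of 11759 tested (0.0085%) passed an adjusted p of 0.05 by limma. The 11759 genes had a mean of at least 1 FPKM in an arm, and differences are of log2(FPKM + 1), empagliflozin minus vehicle. This scale understates the difference of genes with low values. That gene was Mrpl1 (gene ID 289491), a protein of the large mitochondrial ribosomal subunit. It was listed at 0 in all 3 vehicle libraries and at 15.0, 11.1 and 18.2 FPKM with empagliflozin (limma adjusted p = 0.000688). Mrpl1 was also listed at 0 in 21 of the 45 libraries of the series and alternated between 0 and at least 5 FPKM within 9 of the 15 groups. A listed 0 can be a failed estimate, so it is not read here as absence of the transcript. With all 7 tissues of both arms in 1 fit it did not pass (limma adjusted p = 0.9999). No other gene of the mitochondrial ribosome list had an unadjusted p under 0.05, and the median of its 34 tested members was -0.05, or 0.08 without vehicle library 2.

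All further genes are therefore described by their values, and "higher" or "lower" gives only the order of the arms. Their smallest limma adjusted p was 0.551, for Adhfe1 and Scd2. At an unadjusted p under 0.05, 280 genes were higher with empagliflozin (2.38%) and 139 were lower (1.18%). The 3 libraries of each arm did not overlap in 687 genes that were higher (5.84%) and 299 that were lower (2.54%). The median difference of all genes was 0.05, and 62.1% were above 0. For a single gene, the smallest exact permutation p with 3 libraries per arm is 0.1.

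Genes of fatty acid synthesis were mostly higher with empagliflozin. Of 18 tested genes, 15 were higher, 9 of them at an unadjusted p under 0.05 (2.38% of all genes) and 7 with no overlap between arms (5.84% of all genes). None was lower by either measure (1.18% and 2.54% of all genes). The median difference of the list was 0.49, against 0.05 over all genes, and lay between 0.39 and 0.63 when any 1 library was left out. No member passed the adjusted threshold. This list, like the others, was chosen with earlier results of these data known, and it holds the markers Scd2 and Acly. Its counts therefore describe these libraries and are not a test of the list. The plot of lipid genes by library shows their levels.

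Scd2, a stearoyl-CoA desaturase that makes monounsaturated fatty acids, was at 13.7, 8.02 and 7.58 FPKM in vehicle and 25.6, 30.5 and 37.5 FPKM in empagliflozin libraries. The arms did not overlap, and the difference was 1.61 ± 0.24 (SE, n = 3 per arm), with an adjusted p of 0.551 by limma. Scd, the more abundant paralog, was at 2216, 3076 and 1664 FPKM in vehicle and at 1654, 1674 and 1807 FPKM with empagliflozin. Its difference was -0.39 ± 0.25, with overlapping arms. Scd and Scd2 are close paralogs, so how their shared reads were divided matters, a step not given in the sources used here.

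Acly, which cleaves citrate to acetyl-CoA, was at 187.4, 161.3 and 141.4 FPKM in vehicle libraries. With empagliflozin it was at 221, 249.7 and 402 FPKM, a difference of 0.79 ± 0.23 (SE) with no overlap. Slc25a1, the mitochondrial citrate carrier that supplies it, was at 79.8, 84.3 and 60.9 FPKM and at 101.4, 138.8 and 125.0 FPKM in the same order of arms. The arms again did not overlap, and the difference was 0.69 ± 0.17. Me1, malic enzyme, which provides NADPH for the synthesis, was at 161.7, 217.4 and 117.1 FPKM in vehicle and at 225.4, 289.1 and 262.3 FPKM with empagliflozin. Aacs, acetoacetyl-CoA synthetase, was at 41.4, 31.4 and 30.0 FPKM and at 52.8, 45.7 and 77.5 FPKM. Empagliflozin library 3 held the highest value of Acly and of Aacs.

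Fasn, the synthase itself, was at 925, 427 and 713 FPKM in vehicle and at 855, 890.3 and 1119 FPKM with empagliflozin. Vehicle library 1 exceeded empagliflozin libraries 1 and 2, and the difference was 0.53 ± 0.28. Among the regulators, Srebf1 was at 629, 287 and 457 FPKM in vehicle and at 786, 687 and 799.9 FPKM with empagliflozin, without overlap (0.80 ± 0.27). Mlxipl was at 50.1, 21.5 and 45.5 FPKM and at 64.0, 48.5 and 100.5 FPKM, with overlap (0.87 ± 0.36). Vehicle library 2 held the lowest value of Fasn, Srebf1 and Mlxipl. Slc2a4, the insulin-responsive glucose transporter, was at 243, 232.5 and 161.3 FPKM and at 263, 256 and 274 FPKM (0.34 ± 0.17).

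**Figure D2:**
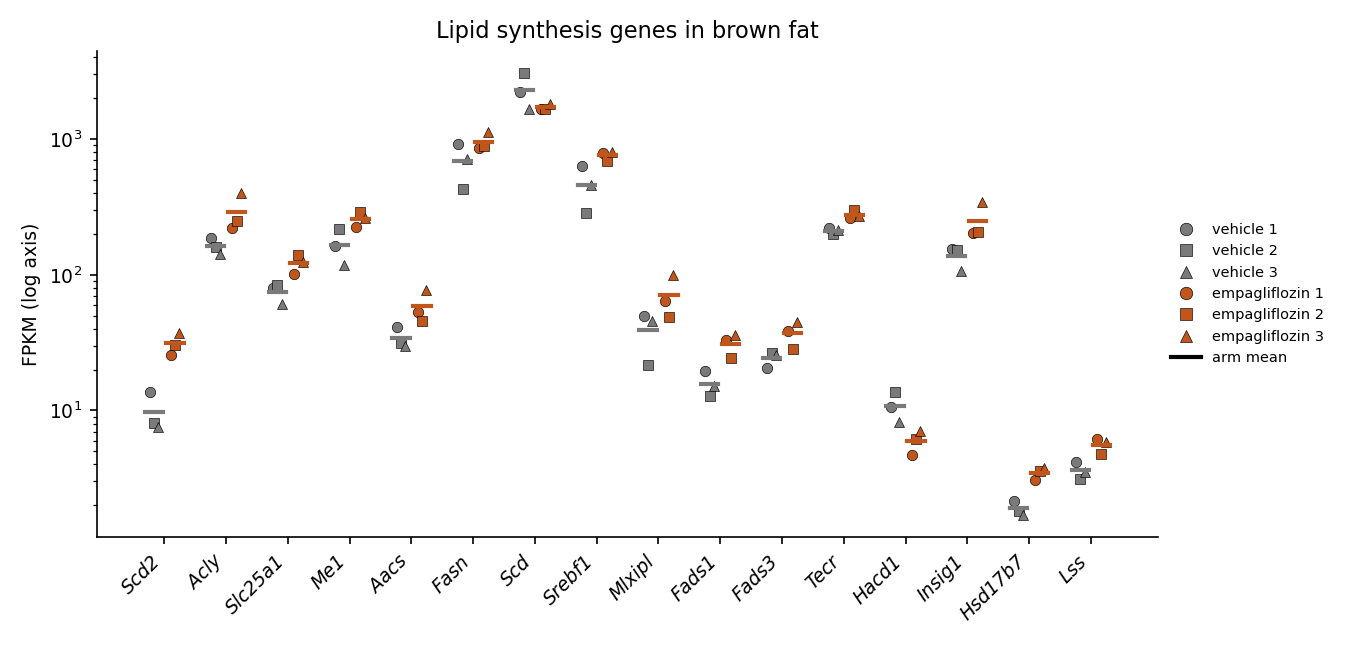
FPKM on a log axis (y) of 16 lipid synthesis genes in each brown fat library, vehicle in grey and empagliflozin in orange, with bars at the arm means. The empagliflozin libraries of Scd2 lie between 25.6 and 37.5 FPKM, above all vehicle libraries at 7.58 to 13.7 FPKM, whereas Scd overlaps between arms.

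The genes that lengthen and desaturate polyunsaturated fatty acids were divided. Of 11 tested, 7 were higher and 4 lower, with 3 and 2 at an unadjusted p under 0.05 (2.38% and 1.18% of all genes). The list median was 0.17, and 0.05 without empagliflozin library 3. Fads1, the delta-5 desaturase of arachidonic acid synthesis, was at 19.4, 12.9 and 15.1 FPKM in vehicle and at 33.2, 24.4 and 35.8 FPKM with empagliflozin. Its arms did not overlap (0.94 ± 0.20, limma adjusted p = 0.994). Fads3, a relative that acts on sphingoid bases, was at 20.6, 26.4 and 25.9 FPKM and at 38.4, 28.3 and 44.9 FPKM (0.58 ± 0.19). Tecr, the reductase that ends each elongation cycle, was at 221, 199.6 and 213.2 FPKM and at 261.4, 297.7 and 270.1 FPKM (0.38 ± 0.12). Hacd1, a dehydratase of the same cycle, was lower, at 10.7, 13.6 and 8.29 FPKM in vehicle and at 4.73, 6.14 and 7.12 FPKM with empagliflozin (-0.75 ± 0.21).

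Cholesterol synthesis genes were higher in 19 of 23 tested members. Over all genes 62.1% were higher. Of these members, 5 had an unadjusted p under 0.05 (2.38% of all genes) and 8 showed no overlap between arms (5.84%), with none lower by either measure (1.18% and 2.54%). The list median was 0.29 and ranged from 0.25 to 0.34 with any 1 library left out. Insig1, which holds SREBP in the endoplasmic reticulum and is itself an SREBP target, was at 154.4, 153 and 107.5 FPKM in vehicle and at 204, 205 and 341 FPKM with empagliflozin (0.83 ± 0.24). Hsd17b7, a 3-ketosteroid reductase of the late pathway, was at 2.17, 1.83 and 1.69 FPKM and at 3.06, 3.56 and 3.78 FPKM (0.62 ± 0.17). Lss, lanosterol synthase, was at 4.18, 3.15 and 3.53 FPKM and at 6.15, 4.76 and 5.83 FPKM (0.51 ± 0.17).

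Genes of triglyceride and phospholipid synthesis lay near the median of all genes. Of 21 tested, 13 were higher, and the list median was 0.05, between -0.02 and 0.10 with any 1 library left out. Gpam, the mitochondrial glycerol-3-phosphate acyltransferase, was at 57.7, 39.7 and 50.8 FPKM in vehicle and at 63.9, 61.5 and 85.9 FPKM with empagliflozin (0.50 ± 0.18). Gpat4, its counterpart in the endoplasmic reticulum, was at 150.2, 142.4 and 149.7 FPKM and at 118.5, 91.2 and 134.3 FPKM (-0.38 ± 0.15). Both genes kept their arms apart, in opposite directions.

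**Figure D3:**
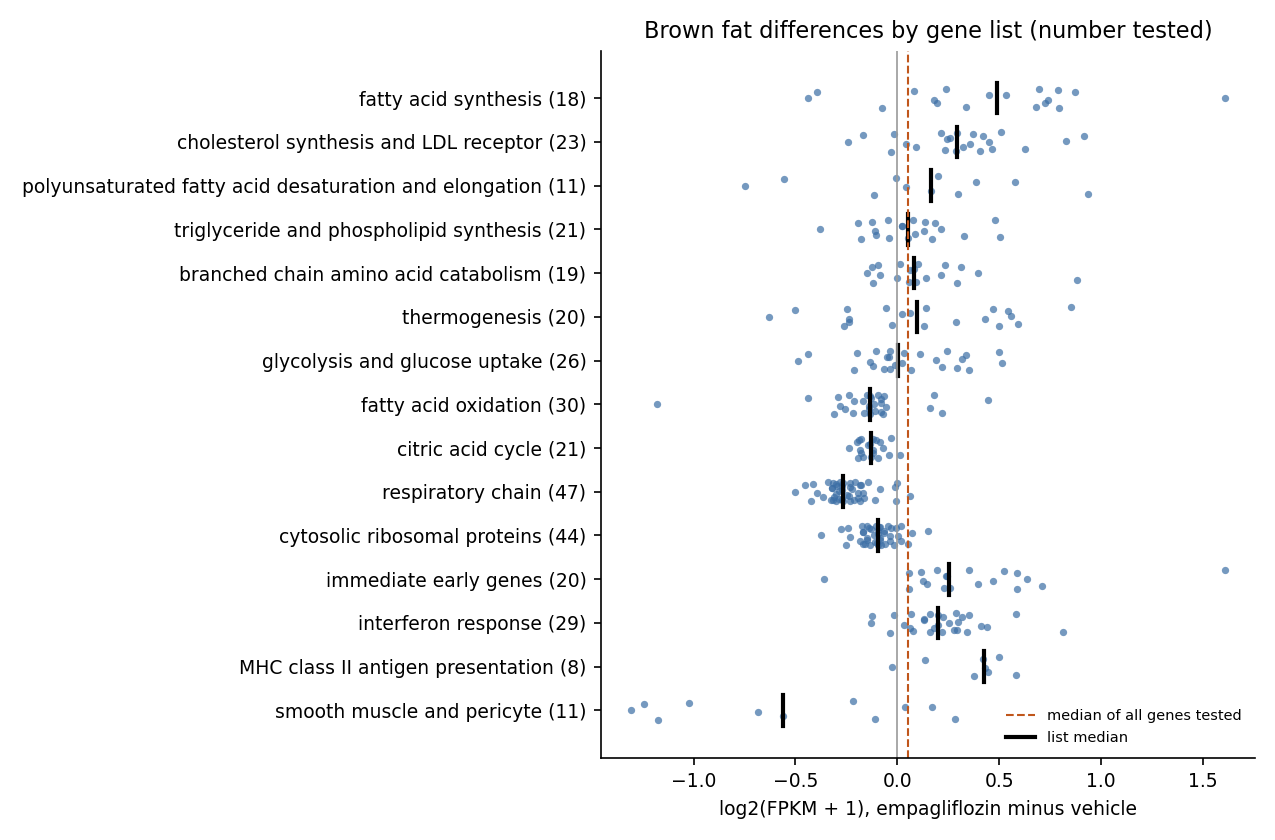
Difference of log2(FPKM + 1), empagliflozin minus vehicle, of every tested member of 15 gene lists (points), with the list median (black bar) and the median of all genes (dashed line). Fatty acid synthesis has the highest list median at 0.49 and the respiratory chain lies below 0 with a median of -0.26.

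Thermogenic genes did not move together. Of 20 tested, 12 were higher and 8 lower, with 4 and 1 at an unadjusted p under 0.05 (2.38% and 1.18% of all genes). Over all genes 62.1% were higher. The list median was 0.10, which was -0.07 without empagliflozin library 3. Ucp1 was at 6970.4, 10083 and 4824 FPKM in vehicle and at 4573, 7107 and 6069.7 FPKM with empagliflozin, a difference of -0.26 ± 0.35 with wide overlap. Without vehicle library 2 the Ucp1 difference was 0.01, and after quantile normalization it was 0.13. Cox8b, a cytochrome oxidase subunit of brown fat and muscle, was at 2312, 4167 and 1455 FPKM and at 1510.2, 2129.8 and 1527 FPKM (-0.50 ± 0.37). Vehicle library 2 held the highest value of Ucp1, Cidea and Cox8b.

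Other members of that list follow. Adrb3, the beta-3 adrenergic receptor through which noradrenaline starts lipolysis and heat production, was at 188, 126 and 279 FPKM in vehicle and at 334, 342 and 343 FPKM with empagliflozin (0.85 ± 0.26). Its arms did not overlap, and the empagliflozin libraries lay close together. Ebf2, a transcription factor of brown adipocyte identity, was at 23.2, 15.6 and 25.8 FPKM and at 31.5, 30.7 and 26.7 FPKM (0.47 ± 0.19). Zic1 was at 3.26, 3.99 and 5.81 FPKM and at 5.92, 7.87 and 6.50 FPKM (0.56 ± 0.21). Dio2, the deiodinase that activates thyroid hormone, was at 11.7, 7.05 and 3.89 FPKM and at 5.61, 9.32 and 24.0 FPKM, and Ppargc1a, the coactivator of mitochondrial biogenesis, differed by 0.13 ± 0.24. Ucp3, a mitochondrial carrier related to Ucp1, was at 72.0, 74.0 and 100.2 FPKM and at 39.8, 49.0 and 72.2 FPKM (-0.63 ± 0.23).

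Transcripts of mitochondrial oxidation lay slightly lower with empagliflozin. In the respiratory chain list 45 of 47 tested members were lower, with a median of -0.26. Over all genes 62.1% were higher. Of the respiratory chain members, 0 had an unadjusted p under 0.05 (1.18% of all genes lower). In 0 did the arms part (2.54% of all genes lower). Its median was -0.05 without vehicle library 2 and -0.45 without vehicle library 3. Ndufb8, a complex I subunit, was at 1229.9, 1853 and 1149 FPKM in vehicle and at 939, 1236 and 954 FPKM with empagliflozin. Citric acid cycle genes were lower in 20 of 21 members, with a median of -0.13 that was -0.05 without vehicle library 2 and -0.24 without vehicle library 3. Of 30 fatty acid oxidation genes 26 were lower, with a median of -0.13 that was -0.09 and -0.19 without these libraries. The latter list held 1 member lower at an unadjusted p under 0.05 (1.18% of all genes) and 4 lower without overlap (2.54%). That member, Ehhadh, a bifunctional enzyme of peroxisomal oxidation, was at 20.2, 40.8 and 62.5 FPKM in vehicle and at 18.9, 10.5 and 20.3 FPKM with empagliflozin (-1.18 ± 0.40, overlapping arms). Summed brown adipocyte markers stood at 9625 to 19543 FPKM in vehicle and 9233 to 13203 FPKM with empagliflozin, and their part in these medians was not tested.

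The 8 genes of lowest p in each direction were taken among those with a proper symbol. Adhfe1, a mitochondrial hydroxyacid-oxoacid transhydrogenase, was at 144.4, 175.9 and 174.8 FPKM in vehicle and at 294, 306 and 299.4 FPKM with empagliflozin (0.86 ± 0.13). Alas1, the first enzyme of heme synthesis, was at 277.6, 241.1 and 249.3 FPKM and at 444.5, 520.5 and 411.6 FPKM (0.84 ± 0.14). Acy1, an aminoacylase, was at 84.9, 81.6 and 83.6 FPKM and at 126.8, 126 and 123.5 FPKM (0.58 ± 0.10). In each of these genes the arms lay apart by more than the spread within an arm, although none passed adjustment by limma (adjusted p = 0.551 for Adhfe1 and 0.710 for Alas1 and Acy1).

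Slc25a10, the mitochondrial dicarboxylate carrier, was at 36.6, 34.5 and 36.0 FPKM in vehicle and at 56.9, 55.0 and 52.4 FPKM with empagliflozin (0.60 ± 0.10). Gulo, the last enzyme of vitamin C synthesis in rodents, was at 0.44, 1.48 and 1.33 FPKM and at 9.13, 3.74 and 7.48 FPKM (1.87 ± 0.33). Bcat2, the mitochondrial transaminase that starts branched chain amino acid breakdown, was at 45.5, 50.9 and 66.9 FPKM and at 106.3, 102.6 and 91.4 FPKM (0.88 ± 0.16). Other genes of branched chain catabolism differed less. Of 19 tested, 13 were higher, where 62.1% of all genes were higher. Of these, 3 had an unadjusted p under 0.05 (2.38% of all genes) and 4 no overlap (5.84%). The list median was 0.08, between 0.03 and 0.14 with any 1 library left out. Dbt, a subunit of the branched chain ketoacid dehydrogenase, was higher by 0.31 ± 0.11, and Mccc1, a carboxylase subunit of leucine breakdown, by 0.29 ± 0.11.

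Among the lower genes of that choice, Colq, the collagen-like anchor of acetylcholinesterase, was at 30.4, 27.0 and 30.7 FPKM in vehicle and at 20.4, 14.9 and 16.5 FPKM with empagliflozin (-0.74 ± 0.15). Slc40a1, the iron exporter ferroportin, was at 11.04, 11.7 and 9.77 FPKM and at 6.23, 6.37 and 7.01 FPKM (-0.65 ± 0.14). Cdc25a, a phosphatase that starts the cell cycle, was at 9.26, 9.64 and 10.6 FPKM and at 5.41, 5.52 and 6.70 FPKM (-0.66 ± 0.15). These genes kept their arms apart, as did Map3k7cl (-0.96 ± 0.20), Dpep1 (-0.74 ± 0.16), Phyhip (-0.71 ± 0.16), Pllp (-0.55 ± 0.13) and Syngr4 (-0.84 ± 0.21). The smallest limma adjusted p of these 8 was 0.952, for Colq. Ahead of them by p came LOC108348137 and LOC100362432, which carry no proper symbol. LOC108348137 was at 1.55, 2.50 and 5.68 FPKM in vehicle libraries and listed at 0 in the empagliflozin libraries (limma adjusted p = 0.710).

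**Figure D4:**
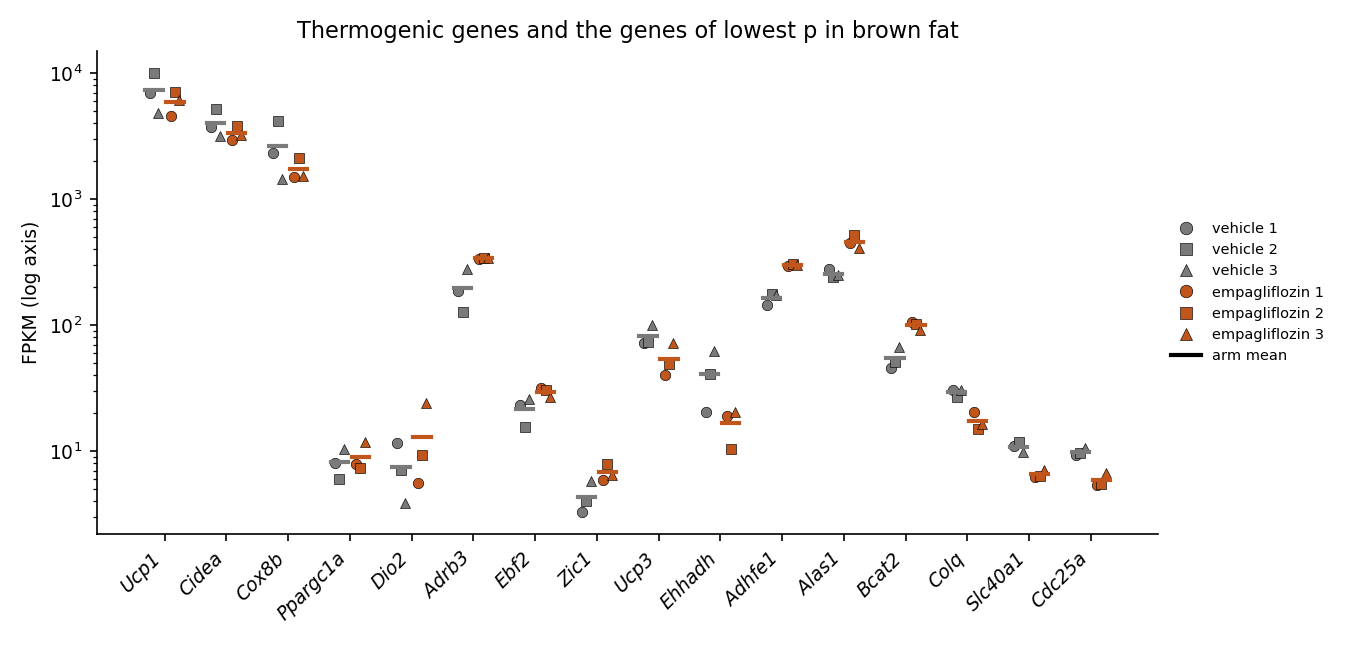
FPKM on a log axis (y) of thermogenic genes and of genes of lowest p in each brown fat library, vehicle in grey and empagliflozin in orange, with bars at the arm means. Ucp1 overlaps between arms at 4573 to 10083 FPKM, whereas the empagliflozin libraries of Adhfe1 lie at 294 to 306 FPKM, above the vehicle libraries at 144.4 to 175.9 FPKM.

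Of the hormone genes, Lep, which encodes leptin, was at 141.7, 99.8 and 70.4 FPKM in vehicle and at 172, 153.7 and 179.5 FPKM with empagliflozin (0.74 ± 0.23). Npr3, the clearance receptor for natriuretic peptides, was at 31.3, 24.2 and 21.6 FPKM and at 43.7, 30.3 and 40.6 FPKM, with overlap (0.55 ± 0.19). Retn, which encodes resistin, was at 273.8, 294.3 and 254.1 FPKM and at 193.6, 253.2 and 162.6 FPKM (-0.45 ± 0.17). Fgf21, a metabolic hormone, was low in every library, at 0.61, 0.37 and 0.21 FPKM and at 1.35, 0.73 and 1.03 FPKM (0.54 ± 0.21). Adipoq, which encodes adiponectin, differed by -0.10 ± 0.23, and by 0.04 after quantile normalization.

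Sugar handling genes showed small differences. Glycolysis and glucose uptake genes were higher in 13 and lower in 13 of 26 members, with a median of 0.004 that lay between -0.05 and 0.08 with any 1 library left out. Pfkfb1, a bifunctional enzyme that sets the fructose 2,6-bisphosphate level, was at 74.4, 73.0 and 63.9 FPKM in vehicle and at 97.6, 95.1 and 109.7 FPKM with empagliflozin (0.51 ± 0.12). Slc5a2, which encodes the drug target SGLT2, was listed at 0 in the vehicle libraries and at 0.14, 0.13 and 0.16 FPKM with empagliflozin, below the filter and not tested. Slc5a1, which encodes SGLT1, was listed at 0 in all 6.

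Among signalling and immune genes, immediate early genes were higher in 19 of 20 tested members, where 62.1% of all genes were higher. With any 1 library left out 15 to 19 were higher. Their median was 0.25, and 0.13 without vehicle library 1 and 0.43 without vehicle library 3. The single member at an unadjusted p under 0.05 (2.38% of all genes) was Jund (0.47 ± 0.15). Egr1, an immediate early transcription factor, was at 6.27, 3.35 and 19.7 FPKM in vehicle and at 75.5, 25.3 and 8.18 FPKM with empagliflozin, and the arms overlapped. Of 29 interferon response genes, 25 were higher (median 0.20). That median was 0.02 without empagliflozin library 1, and 16 to 27 members were higher with any 1 library left out. Their member of lowest p was the chemokine Cxcl10, at 1.08, 0.60 and 0.79 FPKM and at 2.05, 1.84 and 2.73 FPKM (0.81 ± 0.20).

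Genes of MHC class II, through which immune cells present antigen, were higher in 7 of 8 members, with a median of 0.43. Over all genes 62.1% were higher. Of the 8 members, 0 had an unadjusted p under 0.05 (2.38% of all genes higher) and 0 were without overlap (5.84%). Without vehicle library 2 that median was 0.10, and without vehicle library 3 it was 0.72. Macrophage markers were higher in 10 of 11 members, with a median of 0.33 that was -0.03 without vehicle library 2 and 0.75 without vehicle library 3. With any 1 library left out 4 to 10 members were higher. The markers had sums of 151.8 to 361 FPKM in vehicle and 261 to 299.9 FPKM with empagliflozin. Their part in the immune gene medians was not tested. Smooth muscle and pericyte markers were lower in 8 of 11 members, with a median of -0.56 that was -0.13 without vehicle library 3. Tagln, a protein of contractile smooth muscle, showed that library at 228 FPKM, against 52.3 and 50.0 FPKM in the other vehicle libraries and 44.2, 34.1 and 28.6 FPKM with empagliflozin.

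Whether brown fat differed from white fat in its response was tested with an arm by tissue term over 12 libraries. Of 13003 genes 0 passed (limma, 0%, smallest adjusted p = 0.458), with 691 higher (5.31%) and 309 lower (2.38%) at an unadjusted p under 0.05. The median of all genes in this term was 0.22, and values relative to it are named centred. Among the 12 lipid synthesis genes plotted for both fats, Scd had the widest gap. The smallest limma adjusted p in the fatty acid synthesis list was 0.473, which was not that of Scd. Scd was at 1092, 542 and 157.5 FPKM in vehicle white fat and at 2389, 4757 and 5601 FPKM in empagliflozin white fat. Its log2 difference there was 3.13 ± 0.71, and the brown minus white value was -3.53 ± 0.83 (-3.75 centred, limma adjusted p = 0.578). For Fasn the white fat difference was 2.81 ± 0.50 and the term -2.28 ± 0.63 (-2.51 centred). For Scd2 and Fads1 the terms were 0.23 ± 0.57 and 0.23 ± 0.38 (0.01 centred for each).

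In the fatty acid synthesis list 8 of 18 members had a lower brown than white value at an unadjusted p under 0.05 (2.38% of all genes) and 0 a higher one (5.31%), with a median term of -0.81 (-1.03 centred). In the respiratory chain 8 of 45 were lower in that sense, with a median term of -0.99 (-1.21 centred). In the citric acid cycle 10 of 21 were, with a median of -0.91 (-1.13 centred). Empagliflozin white fat library 3 held Ucp1 at 592 FPKM, against 0 and 1.24 FPKM in the other empagliflozin libraries. Leaving out that library was an alternative chosen after seeing the data. The median terms, not centred, were then -0.39 for fatty acid synthesis, -0.46 for the respiratory chain and -0.54 for the citric acid cycle.

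**Figure D5:**
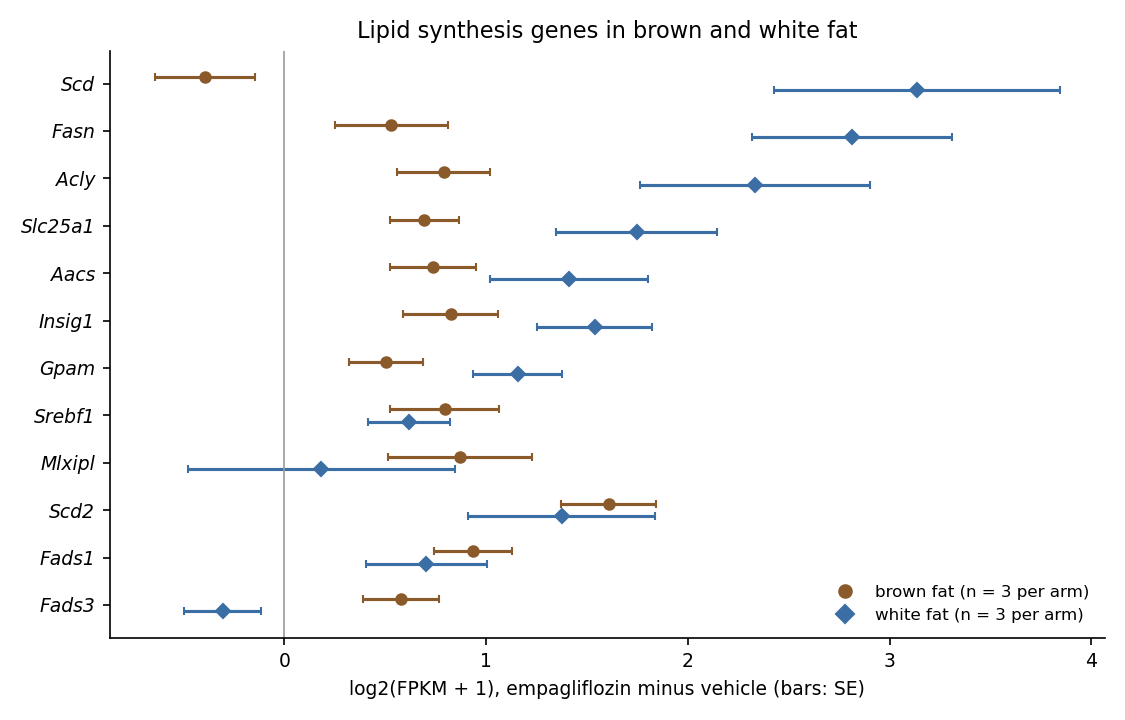
Difference of log2(FPKM + 1), empagliflozin minus vehicle (x axis, bars show SE, n = 3 per arm), of 12 lipid synthesis genes in brown fat (circles) and white fat (diamonds). Scd lies at -0.39 in brown fat and 3.13 in white fat, whereas Scd2 lies at 1.61 and 1.37.

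Against the mean response of the 6 other tissues with both arms, 0 of 11759 genes passed (limma, 0%), with 73 higher (0.621%) and 63 lower (0.536%) at an unadjusted p under 0.05. The other tissues include aorta, with brown adipocyte marker sums of 20705, 1377 and 123 FPKM in vehicle and 13441, 394 and 7092 FPKM with empagliflozin. Such spread enters the single spread fitted per gene, so this result does not show that responses were alike. Among the genes described above, Ehhadh had a term of -1.52 ± 0.40, Gulo of 1.55 ± 0.44 and Syngr4 of -0.85 ± 0.20. Their limma adjusted p was 0.9999. Scd2 had a term of 0.86 ± 0.63 and Acly of 0.12 ± 0.43 (limma unadjusted p = 0.185 and 0.789).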

How the data were processed

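The values were deposited by the authors as FPKM per gene and library, with 2 decimals, for 20794 genes. Per the labels' protocols, a BGISEQ-500 gave single-end reads of 50 bases. HISAT2 2.0.4, Bowtie2 2.2.5 and the build Rnor_6.0 are named in the submitters' processing notes, with the counting program not given in the sources used here. Library depth is unknown, since FPKM keep no read totals, and tests for counts were not used. FPKM summed to 604632 to 738484 per brown fat library, with 15554 to 16131 genes above 0. In 1319 weakly expressed genes, values within 1.5-fold of a lowest value of at least 0.2 FPKM were taken as 1 read. Whether they were single reads was not tested. Their relative size was 0.946 to 1.03 between libraries, a range bounded by that 1.5-fold limit. It therefore does not show that depth was equal. A change in a few abundant transcripts shifts every other FPKM of a library.

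Groups follow the sample titles. Genes whose mean reached 1 FPKM in an arm were tested on log2(FPKM + 1), a pseudocount of 1, with limma 3.58.1 in R 4.3.3 (intensity trend, two-sided, Benjamini-Hochberg threshold 0.05), 3 against 3 libraries. Arm by tissue terms used 12 libraries of both fats or 42 libraries of 7 tissues. The fit was tested on simulated data. The named genes are the called gene and those of lowest p with a proper symbol in each direction up to 8, Ucp1, Scd2, Fads1 and Acly, members of lowest p of the lists, the most abundant markers and a panel of metabolic genes; Me1 and Lhx8 were chosen for the text with their values known. Members and lists were chosen with earlier results of these data known. Lists are described by counts and medians. Alternatives were median-ratio scaling, quantile normalization, a pseudocount of 0.1, a minimum mean of 5 FPKM or none, 1 fit of 7 tissues, robust empirical Bayes, a replicate block and each library left out in turn. Promoters come from RefSeq on GRCr8, which is not the build of the deposited values, and figures were drawn with matplotlib 3.10.9.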

Additional observations from a re-analysis of the deposited data

How the results depend on the processing

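The count of called brown fat genes was 1 under every alternative except 1 fit of 7 tissues, which gave 0, and leaving out a library, which gave 1 to 3. Without vehicle library 3 it was 3, with Cd248 and LOC108348106, both listed at 0 in empagliflozin libraries, beside Mrpl1. Without empagliflozin library 1 it was 2. The count of genes whose response differed from white fat was 0, and 0 to 5 with a library left out; without empagliflozin white fat library 3 it was 5, 4 of them lung epithelium genes. Against the other tissues it was 0, and 0 to 1 with a library left out. The direction of Ucp1 (-0.26) turned to 0.13 after quantile normalization and to 0.0055 without vehicle library 2, and leaving out a library gave the range -0.53 to 0.01. That of Adipoq (-0.10) turned to 0.043 after quantile normalization, with a range of -0.26 to 0.11. Hba-a1, a hemoglobin gene, differed by -0.05 and by 0.13 after quantile normalization, with a range of -0.52 to 0.78, and Ppargc1a differed by 0.13, with a range of -0.060 to 0.31. The cause was not tested. The median of the 44 tested cytosolic ribosomal protein genes was -0.10, and 0.03 without vehicle library 2. The other gene differences kept their direction and side of the threshold, except that Mrpl1 did not pass in 1 fit of 7 tissues.

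The arms are different rats, and no label ties a number to a shared batch or day. For that reason the numbers were not treated as pairs across arms. Deviations from the arm means correlated at 0.10, 0.40 and 0.05 in the same-numbered pairs and at -0.27 to 0.20 in the others. All same-numbered values were above 0, so these correlations do not exclude a link between equal numbers. Whether a number marks the same rat in both fats was not tested. With the numbers as a replicate block 1 gene was called, and 724 genes instead of 419 had an unadjusted p under 0.05. With a block as a random effect 0 genes passed in either comparison between tissues. With 3 libraries per arm and unknown depth, small differences and low genes were not resolved.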

Other observations

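Antioxidant genes regulated by NRF2, a transcription factor of the oxidative stress response, gave no common direction in brown fat. Of 21 tested members 9 were higher and 12 lower, and 7 to 15 were higher with any 1 library left out. At an unadjusted p under 0.05, 3 were higher and 0 lower (2.38% and 1.18% of all genes). Those 3 were Gstm2, Txnrd1 and Gsr. Txnrd1, thioredoxin reductase, was at 19.9, 14.7 and 17.9 FPKM in vehicle and at 24.5, 21.2 and 24.6 FPKM with empagliflozin (0.41 ± 0.15). Gsr, glutathione reductase, was at 67.9, 71.6 and 59.7 FPKM and at 92.1, 77.9 and 82.0 FPKM (0.34 ± 0.12). Gamt, which makes creatine, was at 23.9, 22.4 and 20.9 FPKM and at 28.8, 38.2 and 29.4 FPKM (0.49 ± 0.14). Hspb8, a small heat shock protein, was lower, at 9.59, 13.4 and 11.1 FPKM and at 5.48, 4.45 and 8.59 FPKM (-0.81 ± 0.23). Bhlhe41, a repressor of the circadian clock, was at 6.39, 3.05 and 3.93 FPKM and at 10.7, 6.20 and 6.79 FPKM, with overlap (0.72 ± 0.27). None passed adjustment by limma (adjusted p = 0.994 for each).

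Ucp1 was not limited to brown fat libraries. In vehicle aorta it stood at 10224, 551 and 19.4 FPKM, and in empagliflozin aorta at 7322, 168 and 4041 FPKM. The highest aorta library thus exceeded every brown fat library. That library, vehicle aorta 1, had a pan adipocyte marker sum of 33559 FPKM, against 3416 and 6151 FPKM in the other vehicle aorta libraries. Its smooth muscle and pericyte sum was 453 FPKM, against 22070 and 20543 FPKM. Which cells of the aorta libraries held Ucp1 was not tested. In the lung and brain libraries Ucp1 was listed at 0.

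Mrpl1 was listed at 0 in all 3 vehicle libraries of lung and of white fat as well as of brown fat. In vehicle kidney it stood at 15.8, 8.22 and 5.23 FPKM. Within vehicle brain it was at 12.3 FPKM in 1 library and at 0 in the others. Such a mix of 0 and values from 5 FPKM upward occurred within 5 or more groups for 20 genes in all.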
